A study of Rattus norvegicus with 119 samples.

Results

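The protein-folding genes examined here were 10 heat shock and endoplasmic reticulum chaperone genes and their regulators (Hspa5, Hsp90b1, Pdia4, Hspa8, Hsph1, Dnajb1, Hspb1, Ddit3, Atf4 and Xbp1), measured in the rat hippocampus. A probe set counted as a member where the only gene symbol given for it was 1 of these 10. This rule found 17 probe sets of 29214, and 10 genes of the 14506 symbols on the array. Hspa8 had 8 probe sets and the other 9 genes had 1 each. All 17 entered every test, since no filter on low values was used.

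Gene expression was measured on Affymetrix arrays in total RNA from dissected, flash-frozen whole hippocampus of Long Evans, Sprague Dawley and Fischer rats of both sexes, to ask how strain alters the response of the brain to lead in development. Perinatal exposure to 250 or 750 ppm lead acetate in chow began in the dams 10 days before breeding and ended at weaning. Postnatal exposure at the same 2 doses ran from birth to postnatal day 45, and control animals ate chow without lead. All animals were collected on postnatal day 55, after lead-containing food had been withdrawn, so every exposed group includes a lead-free interval. Each strain thus had 8 exposed groups (2 periods, 2 doses, both sexes) and 2 control groups, which gave 30 groups of 4 arrays, except 3 for Sprague Dawley male controls. The labels name no litters or dams, so the p-values below measure the spread between these arrays only. Whole tissue was used, and fewer cells of a type and less RNA per cell cannot be told apart in it.

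The endoplasmic reticulum folds secreted and membrane proteins with chaperones such as BiP, the product of Hspa5. When unfolded proteins accumulate there, the unfolded protein response is set off through sensors that lead to XBP1, ATF6 and ATF4, and these factors raise transcription of the chaperone genes and, under prolonged stress, of Ddit3. In the cytosol the heat shock response, driven by HSF1, does the same for Hsph1, Dnajb1 and Hspb1, while Hspa8 is made constantly and at high level in neurons, where its product also uncoats clathrin-coated vesicles.

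The promoters of 5 members are shown because they hold the DNA elements by which these responses are known to act. Each run spans 250 bases before to 50 bases after the annotated start and comes from RefSeq (build GRCr8, given 5′ to 3′ on the strand of the gene). Capitals mark the endoplasmic reticulum stress element, in which CCAAT is followed after 9 bases by CCACG, in Hspa5 (chr3:38452766-38453065, plus strand), Hsp90b1 (chr7:23012244-23012543, minus strand) and Xbp1 (chr14:84604373-84604672, plus strand). In Hspa8 (chr8:50080264-50080563, plus strand) and Hsph1 (chr12:10427118-10427417, plus strand) they mark a heat shock element, in which GAA, TTC and GAA follow each other with 2 bases between. Matches on either strand are capitalised.
Hspa5: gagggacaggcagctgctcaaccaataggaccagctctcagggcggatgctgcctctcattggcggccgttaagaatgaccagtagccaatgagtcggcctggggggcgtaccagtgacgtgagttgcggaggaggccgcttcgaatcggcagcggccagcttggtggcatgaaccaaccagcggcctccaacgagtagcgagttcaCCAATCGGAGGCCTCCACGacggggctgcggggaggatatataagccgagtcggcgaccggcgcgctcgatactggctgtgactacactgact
Hsp90b1: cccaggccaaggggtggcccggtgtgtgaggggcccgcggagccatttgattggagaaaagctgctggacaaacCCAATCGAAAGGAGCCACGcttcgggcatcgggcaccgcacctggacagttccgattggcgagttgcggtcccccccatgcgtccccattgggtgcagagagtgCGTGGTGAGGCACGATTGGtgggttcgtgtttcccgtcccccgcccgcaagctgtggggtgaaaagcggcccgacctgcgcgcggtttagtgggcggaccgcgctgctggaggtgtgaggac
Xbp1: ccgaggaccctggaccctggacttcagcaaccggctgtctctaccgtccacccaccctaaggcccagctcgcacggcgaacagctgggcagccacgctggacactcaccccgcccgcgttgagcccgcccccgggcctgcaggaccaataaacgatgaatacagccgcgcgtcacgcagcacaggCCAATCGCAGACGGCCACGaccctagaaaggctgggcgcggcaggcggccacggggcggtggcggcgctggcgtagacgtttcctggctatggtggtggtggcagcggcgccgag
Hspa8: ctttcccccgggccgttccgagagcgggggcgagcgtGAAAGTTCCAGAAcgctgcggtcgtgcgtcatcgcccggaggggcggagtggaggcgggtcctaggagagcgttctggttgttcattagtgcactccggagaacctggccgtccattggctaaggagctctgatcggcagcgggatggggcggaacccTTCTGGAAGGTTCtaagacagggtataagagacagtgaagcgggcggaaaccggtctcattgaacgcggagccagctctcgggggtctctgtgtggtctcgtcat
Hsph1: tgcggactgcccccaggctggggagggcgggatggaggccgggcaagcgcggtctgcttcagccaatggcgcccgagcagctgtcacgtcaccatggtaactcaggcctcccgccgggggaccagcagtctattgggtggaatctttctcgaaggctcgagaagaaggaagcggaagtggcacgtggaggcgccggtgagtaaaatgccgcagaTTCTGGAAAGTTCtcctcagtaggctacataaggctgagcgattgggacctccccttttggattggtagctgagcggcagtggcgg

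All 10 members had a promoter in the table of 33469. The stress element was found in 3 of the 10, against 0.0657% of all promoters, and the heat shock element in 2 of the 10, against 0.798%. Hsp90b1 held the stress element on both strands, with first bases at -176 and -72 from the start, and Hspa8 held the heat shock element on both strands, at -213 and -55. The single match began at -43 in Hspa5, at -65 in Xbp1 and at -36 in Hsph1. No member promoter held the letters of the shorter stress element (ATTGG and CCACG with 1 base between), of the unfolded protein response element TGACGTGG, or of the C/EBP-ATF element TGATGNAAT, which stood in 0.0508%, 0.595% and 1.09% of all promoters. No 2 of the motifs overlapped in the members, and a match is a description of the letters only.

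Most members gave a strong signal in hippocampus. The probe sets of Hspa8 lay at percentiles 99.7 to 99.9 of mean log2 level over the array, Hspa5 at 98.8, Hsp90b1 at 98.1 and Xbp1 at 97.2. Hsph1 stood at percentile 91.4, Dnajb1 at 82.3, Pdia4 at 77.2 and Atf4 at 77.1. Ddit3, at percentile 62.8, and Hspb1, at 56.4, gave the dimmest signals. Brightness also depends on the probes, so these ranks place each probe set on the array and do not order the genes by mRNA.

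Several features of the whole series touch the results. The arrays of each group carry a run of neighbouring numbers in their labels, and the arrays with upper and with lower numbers of a group differed in many genes in Fischer (60.9% of probe sets) and Sprague Dawley (18.9%) but in few in Long Evans (0.0993%). What the numbers stand for is not given. Each group has its own run, so group and run cannot be told apart. In Long Evans the control groups and the female perinatal 750 ppm group were numbered next to each other, the male perinatal 750 ppm group far from all others, and the other 6 exposed groups in between. A further 8 arrays lay against their sex label, and 4 arrays held pineal gland transcripts. For the members, the values by label number set, and without such arrays, are given beside the results they alter; counts over pathway and marker lists were not split in this way.

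Lead exposure left no member past the test. The effect in each exposed group was its mean log2 level minus that of controls of the same strain and sex, tested with limma and Benjamini-Hochberg adjustment over all 29214 probe sets (adjusted p under 0.05). None of the 17 member probe sets was called in any of the 24 group contrasts. In Long Evans the share of all probe sets called was 0.0411%, 0.0548%, 0.024% and 0.0479% in the male groups (perinatal 250 and 750 ppm, then postnatal 250 and 750 ppm) and 0.0103%, 0.133%, 0.0171% and 0.0103% in the female groups in that order. In Sprague Dawley it was 0.0274%, 0.0103%, 0.0137% and 0.0137% in the male groups and 0% in each female group. In Fischer it was 0.0137% in males given 750 ppm postnatally, 0.00342% in females given 250 ppm perinatally and 0% in the other 6 groups. At an unadjusted p under 0.05 there were 14 of 136 member probe sets and groups in Long Evans, 2 in Sprague Dawley and 1 in Fischer. Of all 29214 probe sets, 1031 to 2730 per group had such a p in Long Evans, 667 to 1346 in Sprague Dawley and 327 to 1245 in Fischer. The mean effect over the 8 exposed groups of a strain called none of the 17 either, against 0.212% of all probe sets in Long Evans, 0.0171% in Sprague Dawley and 0% in Fischer. Of the 17, the unadjusted p of the mean effect was under 0.05 for 5 in Long Evans (Hspa5, Xbp1, Pdia4, Hsph1 and Ddit3) and for 0 in the other 2 strains. Of all 29214 probe sets it was under 0.05 for 2177 in Long Evans, 1064 in Sprague Dawley and 729 in Fischer. The plot of mean lead effects shows the 17 probe sets side by side.

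**Figure D1:**
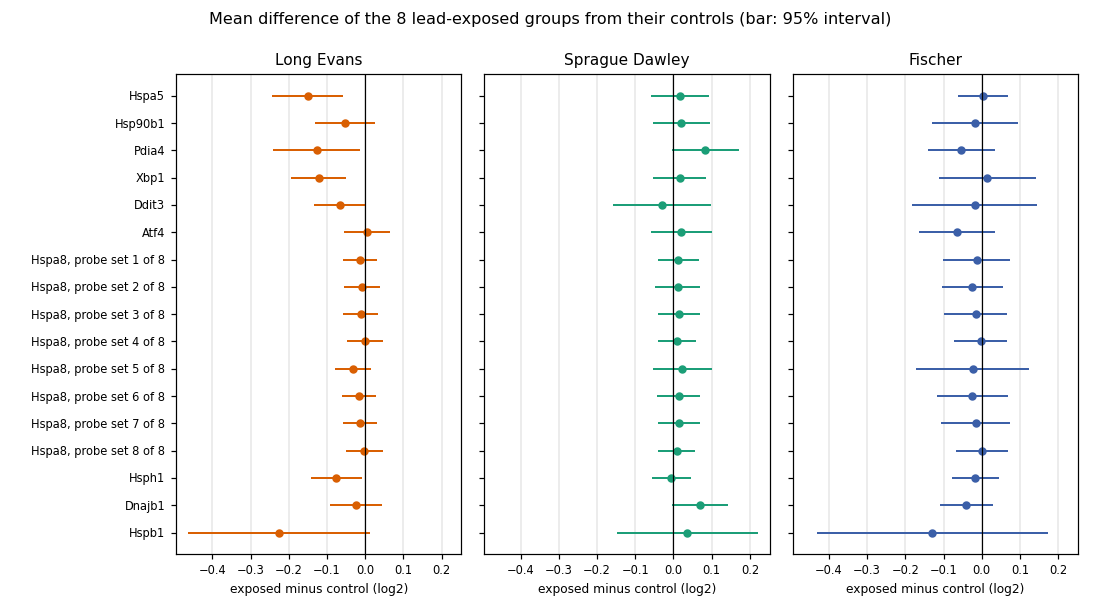
Mean lead effect of the 17 member probe sets (log2 difference, exposed minus control, mean of 8 exposed groups) in each strain, with 95% confidence intervals. In Long Evans the lowest points are those of Hspb1 (-0.23), Hspa5 (-0.15), Pdia4 (-0.13) and Xbp1 (-0.12). The lowest point is -0.13 (Hspb1) in Fischer and -0.03 in Sprague Dawley, and no member passed the adjusted test in any strain.

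Among the endoplasmic reticulum chaperones, Hspa5, which encodes the chief Hsp70 chaperone of this compartment, had the lowest unadjusted p after Xbp1. In Long Evans its log2 level had a lowest, median and highest value of 11.94, 12.23 and 12.42 in the 32 exposed animals, against 12.08, 12.39 and 12.56 in the 8 controls. The exposed animals sat lower in the median, and the ranges overlapped. The mean effect was -0.15 ± 0.04 (SE; 95% interval -0.24 to -0.06), with an unadjusted p of 0.00196 and an adjusted p of 0.206. The lowest group was males given 750 ppm perinatally, at 11.94, 12.10, 12.22 and 12.05, against 12.26, 12.30, 12.53 and 12.37 in control males. All 4 exposed males in this group lay below all 4 controls, with a mean difference of -0.29 ± 0.08 (adjusted p = 0.286). How many of all probe sets parted in this way was not counted. The exposed group is the one with label numbers far from the others. In the female perinatal 750 ppm group, numbered next to the controls, Hspa5 averaged 12.31 ± 0.03, against 12.38 ± 0.21 in control females (SD, n = 4 each; adjusted p = 0.964 in limma).

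The call for Hspa5 turned on 1 array and on the choice of model. Long Evans female control replicate 1 had an Hspa5 level of 12.08, against 12.41 to 12.56 in the other 3 female controls. The same array lay against its sex label and had a choroid plexus list mean of 7.17, against 10.10 to 10.46 in the other 3. Without it the Hspa5 effect was -0.20 with an adjusted p of 0.0282, and in 1 fit of the arrays of all strains it was -0.15 with an adjusted p of 0.0258; both pass the threshold. Among the Long Evans controls, male replicate 4 and female replicate 3 also lay against their sex label, and this male array held pineal transcripts. Without all the arrays that lay against their sex label the Hspa5 effect was -0.20 with an adjusted p of 0.128. With the choroid plexus list as a covariate it was -0.14 with an adjusted p of 0.193.

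Pdia4, a disulfide isomerase of the endoplasmic reticulum, had Long Evans levels of 8.86, 9.34 and 9.57 in exposed animals (lowest, median, highest), against 9.11, 9.46 and 9.84 in controls. Its mean effect was -0.13 ± 0.05 (adjusted p = 0.581). Males given 750 ppm perinatally were again the lowest group, with 8.86, 9.20, 9.16 and 9.11, against 9.41, 9.35, 9.59 and 9.33 in control males. The groups did not overlap, which was not counted over all probe sets, and the difference was -0.33 ± 0.10 (adjusted p = 0.334). For Hsp90b1, the Hsp90 chaperone of this compartment, the exposed Long Evans animals lay at 11.73 to 12.09, against 11.83 to 12.21 in controls, and the mean effect was -0.05 ± 0.04 (adjusted p = 0.856).

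In the same male perinatal 750 ppm group, the choroid plexus list averaged 7.32, 7.73, 9.50 and 9.13 per array, against 10.66, 7.87, 10.85 and 8.17 in control males, and the endothelial list 8.11 to 8.44, against 8.45 to 8.49. Across all Long Evans animals, 5 of 8 oligodendrocyte probe sets were called higher in exposed than in control animals, where 0.175% of all probe sets were. The list median was 0.19, with list means per array of 11.29 to 11.67 in exposed animals and 11.24 to 11.39 in controls. Of 11 immediate early genes 2 were called lower, where 0.0377% of all probe sets were (median -0.31, with 8.59 to 9.37 in exposed, 8.85 to 9.51 in controls). Group and label run cannot be told apart in these values. No choroid plexus gene was called (median -0.36; 7.32 to 11.06 in exposed, 7.17 to 10.85 in controls). Apart from the choroid covariate above, the part of these markers in the chaperone values was not tested.

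**Figure D2:**
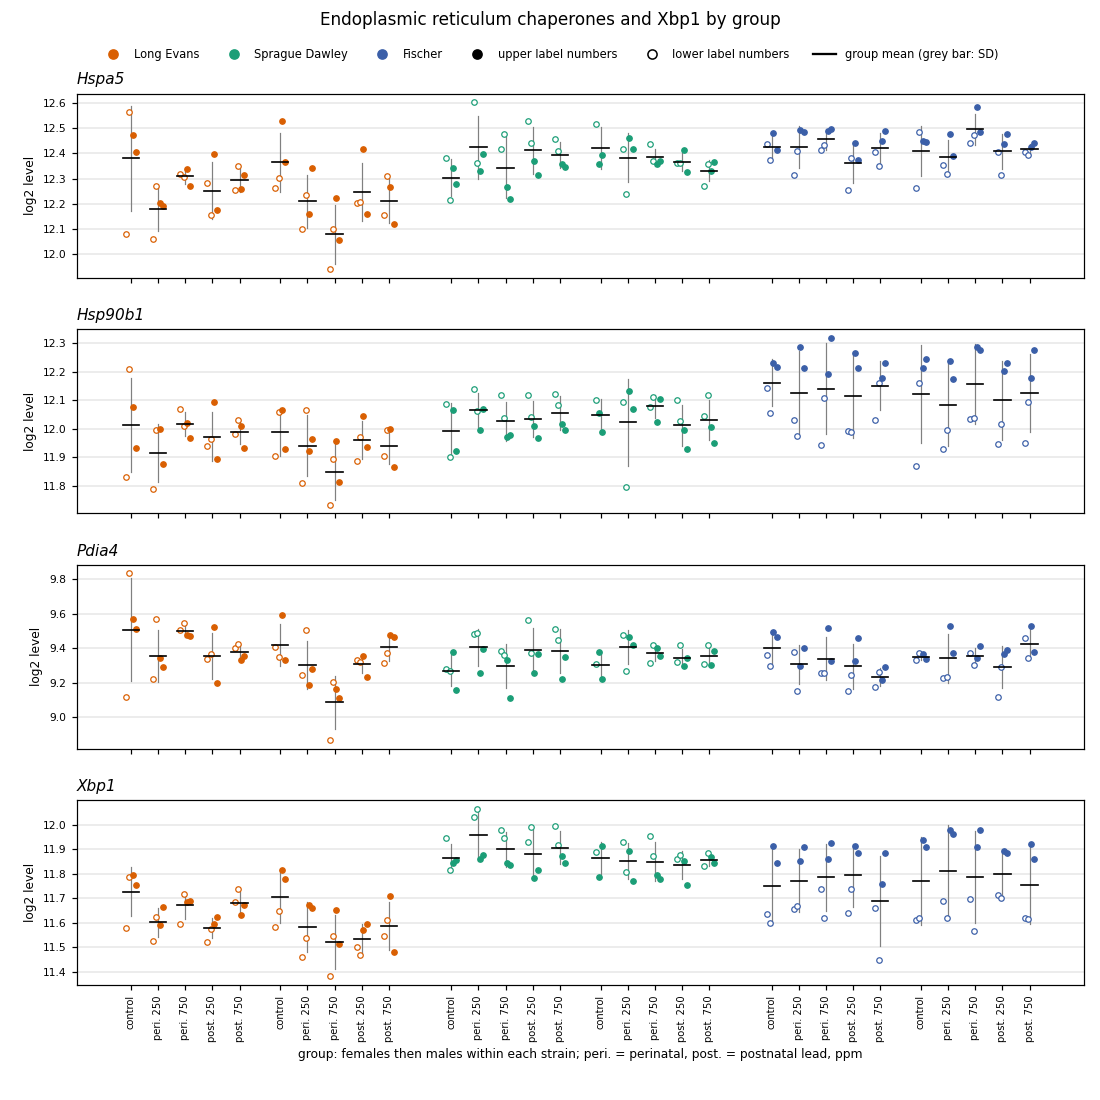
Log2 level of Hspa5, Hsp90b1, Pdia4 and Xbp1 on each array, by group (30 groups; females then males within a strain). Filled points are arrays with upper label numbers and open points those with lower ones; black lines are group means and grey bars the SD. In Long Evans the male perinatal 750 ppm group has the lowest mean of all 4 genes, and in Fischer the filled and open points of Xbp1 and Hsp90b1 part within every group.

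Of the transcription factors, Xbp1, whose mRNA is spliced by the sensor IRE1 to make an active factor, gave the lowest unadjusted p. The array measures its total mRNA and not the splicing. In Long Evans the exposed animals lay at 11.38, 11.60 and 11.74 (lowest, median, highest), against 11.58, 11.77 and 11.82 in controls. The exposed animals were lower in the median, with overlapping ranges, and the mean effect was -0.12 ± 0.03 (95% interval -0.19 to -0.05; unadjusted p = 0.00106; adjusted p = 0.156). Ddit3, which encodes CHOP, a factor tied to cell death under prolonged stress, had 8.26, 8.43 and 8.56 in exposed animals, against 8.38, 8.5 and 8.60 in controls, an effect of -0.07 ± 0.03 (adjusted p = 0.656). Atf4, the effector of the integrated stress response, had a mean effect of 0.00 in this strain.

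None of the cytosolic members passed the adjusted test either. Hsph1, an Hsp110 nucleotide exchange factor, had Long Evans levels of 10.38, 10.57 and 10.69 in exposed animals, against 10.57, 10.63 and 10.83 in controls (effect -0.08 ± 0.03, adjusted p = 0.543). Dnajb1, an Hsp40 cochaperone, had an effect of -0.02, and the 8 probe sets of Hspa8 had effects of -0.03 to -0.00. Hspb1, which encodes the small heat shock protein Hsp27, had 7.46, 8.04 and 8.48 in exposed animals, against 7.62, 8.15 and 9.28 in controls, and the effect was -0.23 ± 0.12 (adjusted p = 0.696). The highest of these controls, at 9.28, was 1 of the arrays with pineal transcripts, and without those arrays the Hspb1 effect was -0.07 (adjusted p = 0.914).

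In Sprague Dawley the largest mean effects were those of Pdia4, at 0.08 ± 0.04, and Dnajb1, at 0.07 ± 0.03 (adjusted p = 0.999 for both). In Fischer they ran from -0.13 for Hspb1 to 0.02 for Xbp1, with an adjusted p of 1 throughout. The 8 exposed groups of a strain share 2 control groups, so their effects are not independent of each other. Whether the mean effect differed between strains was tested directly, and none of the 17 probe sets passed (background 0.13% for Long Evans minus Fischer, 0.0787% for Long Evans minus Sprague Dawley, 0.0103% for Sprague Dawley minus Fischer). For Hspa5 the difference was -0.15 for Long Evans minus Fischer (adjusted p = 0.504) and -0.17 for Long Evans minus Sprague Dawley (adjusted p = 0.574). Without Long Evans female control replicate 1, 1 member was called in each of these 2 contrasts.

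Dose and timing gave no member call. The contrast of 750 minus 250 ppm called 0 of the 17 in each strain (background 0.0548% in Long Evans, 0.00342% in Sprague Dawley, 0.0719% in Fischer), and so did postnatal minus perinatal exposure (0.065%, 0.0411% and 0.00342% in the same order of strains). The lowest p among dose contrasts of Hspb1 was in Fischer, where animals given 750 ppm averaged 7.66 and those given 250 ppm 7.32 (difference 0.33 ± 0.13, adjusted p = 0.78), and the higher mean includes the array at 9.41 that held pineal transcripts. Without such arrays the Hspb1 dose difference was 0.22 ± 0.07 (adjusted p = 0.53). Females and males did not pass the test for any member in level (background 0.0856% in Long Evans, 0.0171% in Sprague Dawley, 0.0822% in Fischer) or in the mean lead effect (0%, 0.00342% and 0%). In level, 7 of the 17 had an unadjusted p under 0.05 in Long Evans, as did 4822 of all 29214 probe sets.

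Strain differences were called for most members over all groups, and fewer were called in control animals alone, where there are fewer arrays. Over all groups, with the 10 exposure and sex groups weighted equally, 16 of 17 member probe sets differed between Long Evans and Fischer, 4 of them higher and 12 lower in Long Evans. On the whole array 61.2% of probe sets were called in this contrast, 27.8% higher and 33.4% lower. Sprague Dawley minus Fischer called 6 of 17 (background 40.7%) and Long Evans minus Sprague Dawley 14 of 17 (background 62.2%). The 8 probe sets of Hspa8 weigh heavily in these counts, and they are not independent. With upper label numbers alone the count for Sprague Dawley minus Fischer was 16, and with lower numbers alone it was 13, while that for Long Evans minus Fischer was 6 with lower numbers alone. Among control animals alone (8 Long Evans, 7 Sprague Dawley and 8 Fischer) the counts were 1, 1 and 2 for the 3 contrasts in the order given above: Hspb1, then Dnajb1, then Dnajb1 and Ddit3. The share of all probe sets called was not counted in the label number sets or in controls alone. Whether these counts are particular to the members is therefore not known.

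Hspa5 was lowest in Long Evans over all groups. Its level ran over 11.94, 12.26 and 12.56 (lowest, median, highest) in the 40 Long Evans arrays, 12.21, 12.36 and 12.61 in the 39 Sprague Dawley arrays and 12.25, 12.44 and 12.59 in the 40 Fischer arrays. The difference was -0.17 ± 0.02 for Long Evans minus Fischer (adjusted p = 1.08e-11) and -0.12 ± 0.02 for Long Evans minus Sprague Dawley (adjusted p = 1.84e-07), while Sprague Dawley minus Fischer, at -0.04, did not pass (adjusted p = 0.0746). The ranges of all 3 strains overlapped. Both calls held within the upper and within the lower label numbers. Among control animals alone the Hspa5 difference was -0.05 for Long Evans minus Fischer (adjusted p = 0.635) and 0.01 for Long Evans minus Sprague Dawley (adjusted p = 0.932).

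Hsp90b1 followed with 11.73, 11.96 and 12.21 in Long Evans, 11.80, 12.05 and 12.14 in Sprague Dawley and 11.87, 12.17 and 12.32 in Fischer. All 3 strain pairs were called, at -0.17 ± 0.02 for Long Evans minus Fischer (adjusted p = 2.16e-09), -0.09 ± 0.02 for Sprague Dawley minus Fischer (adjusted p = 0.00128) and -0.08 ± 0.02 for Long Evans minus Sprague Dawley (adjusted p = 0.00382). These depended on the label numbers: the Long Evans minus Fischer difference was -0.27 in the upper set and -0.07 in the lower (adjusted p = 0.0818 in the lower), and Sprague Dawley minus Fischer was -0.22 in the upper and 0.04 in the lower. Long Evans minus Sprague Dawley was -0.05 in the upper set (adjusted p = 0.0735) and -0.11 in the lower, and -0.02 in controls alone (adjusted p = 0.856). Pdia4 did not pass in any strain pair, with medians of 9.35 in Long Evans, 9.36 in Sprague Dawley and 9.34 in Fischer. The interval of its Long Evans minus Fischer difference was -0.02 to 0.08.

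Xbp1 was ordered Sprague Dawley, Fischer, Long Evans from high to low. Its levels were 11.38, 11.62 and 11.82 in Long Evans, 11.75, 11.87 and 12.06 in Sprague Dawley and 11.45, 11.75 and 11.98 in Fischer. The Long Evans and Sprague Dawley ranges overlapped only between 11.75 and 11.82. The differences were -0.26 ± 0.03 for Long Evans minus Sprague Dawley (adjusted p = 1.77e-15), -0.15 ± 0.03 for Long Evans minus Fischer (adjusted p = 1.48e-07) and 0.11 for Sprague Dawley minus Fischer (adjusted p = 0.000345). Within label numbers the first 2 kept their sign, whereas Sprague Dawley minus Fischer was -0.07 in the upper set and 0.28 in the lower. In controls alone the Xbp1 difference was -0.15 for Long Evans minus Sprague Dawley (adjusted p = 0.107) and -0.04 for Long Evans minus Fischer (adjusted p = 0.672).

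Ddit3 and Atf4 were higher in Long Evans than in Fischer, opposite in direction to Hspa5 and Hsp90b1. Ddit3 had 8.26, 8.45 and 8.60 in Long Evans, 7.92, 8.17 and 8.44 in Sprague Dawley and 7.93, 8.28 and 8.76 in Fischer. Long Evans exceeded Sprague Dawley by 0.27 ± 0.03 (adjusted p = 5.27e-11), in the upper (0.22) and the lower label numbers (0.34) and in controls alone (0.30, adjusted p = 0.0203). The 0.15 ± 0.03 between Long Evans and Fischer (adjusted p = 9.36e-05) came with 0.32 in the upper set and -0.02 in the lower. Sprague Dawley minus Fischer was -0.12 ± 0.03 overall (adjusted p = 0.00239), with 0.10 in the upper set and -0.35 in the lower. Atf4 was higher in Long Evans by 0.14 ± 0.02 (adjusted p = 1.94e-08) and in Sprague Dawley by 0.11 (adjusted p = 4.22e-06) than in Fischer, and Long Evans minus Sprague Dawley, at 0.02, did not pass (adjusted p = 0.353). By label number the Atf4 difference to Fischer was 0.19 in the upper and 0.08 in the lower set for Long Evans (adjusted p = 0.0212 in the lower), and 0.20 in the upper and 0.03 in the lower for Sprague Dawley (adjusted p = 0.416 in the lower). In controls alone it was 0.08 for Long Evans (adjusted p = 0.147) and 0.05 for Sprague Dawley (adjusted p = 0.551).

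Dnajb1 gave the lowest p of all members between strains. It had 9.68, 9.85 and 10.07 in Long Evans, 9.38, 9.60 and 9.75 in Sprague Dawley and 9.55, 9.76 and 9.94 in Fischer. Long Evans and Sprague Dawley overlapped only between 9.68 and 9.75. The difference was 0.28 ± 0.02 (adjusted p = 8.63e-26), at 0.31 in the upper and 0.25 in the lower label numbers and at 0.36 in control animals alone (adjusted p = 2.48e-05). Fischer lay between, below Long Evans (difference 0.11 ± 0.02, adjusted p = 8.91e-08) and above Sprague Dawley (difference -0.17 ± 0.02, adjusted p = 6.57e-14), and both calls held in each label number set.

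Hsph1 was lower in Long Evans, with 10.38, 10.58 and 10.83, than in Sprague Dawley, with 10.59, 10.71 and 10.83, and Fischer, with 10.59, 10.70 and 10.85. The differences were -0.13 ± 0.01 against Sprague Dawley (adjusted p = 3.65e-13) and -0.12 ± 0.01 against Fischer (adjusted p = 3.64e-11), and both kept their call within each label number set. In controls alone the Hsph1 differences were -0.08 (adjusted p = 0.207) and -0.07 (adjusted p = 0.239) in that order. The mean of the 8 Hspa8 probe sets had medians of 13.21 in Long Evans, 13.28 in Sprague Dawley and 13.28 in Fischer. By label number that Hspa8 mean was 13.21 in Long Evans, 13.25 in Sprague Dawley and 13.37 in Fischer in the upper sets, and 13.20 in Long Evans, 13.32 in Sprague Dawley and 13.20 in Fischer in the lower sets. The order of the strains thus differed between the sets, and 6 of the 8 probe sets turned sign for Long Evans minus Fischer in the lower set. The 8 probe sets correlated with each other at r = 0.864 to 0.996 over all arrays, and transcripts of near-identical copies cannot be told apart by them.

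Hspb1 averaged lower in Fischer than in the other 2 strains over all groups, and the ranges of the strains overlapped. Its level was 7.46, 8.06 and 9.28 in Long Evans, 7.64, 8.01 and 8.72 in Sprague Dawley and 7.01, 7.45 and 9.41 in Fischer. Without the arrays that held pineal transcripts the highest Fischer value was 7.92 and the highest Long Evans value 8.48. Long Evans and Sprague Dawley each exceeded Fischer by 0.52 ± 0.07 (adjusted p = 3.24e-10 and 7.69e-10), and by 0.56 and 0.60 without those arrays. In controls alone the excess over Fischer was 0.39 for Sprague Dawley (adjusted p = 0.262). Long Evans minus Fischer was called in controls alone, with Hspb1 means of 8.22 in Long Evans and 7.62 in Fischer. Each of these control sets includes an array that held pineal transcripts, at 9.28 in Long Evans and 8.47 in Fischer. Controls alone were not tested without such arrays. Over all groups Long Evans minus Sprague Dawley was -0.00 with an interval of -0.14 to 0.13. The difference to Fischer was 0.68 in the upper and 0.35 in the lower label numbers for Long Evans, and 0.69 in the upper and 0.36 in the lower for Sprague Dawley.

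Markers of other cell types were also called between strains, where 61.2% of all probe sets were. Of 8 astrocyte probe sets 1 was higher and 6 lower in Long Evans than in Fischer (list mean per array 11.48 to 11.65 in Long Evans, 11.53 to 11.84 in Fischer), and 5 of 9 endothelial ones were lower (8.11 to 8.56, against 8.26 to 8.72). Immediate early genes were higher in Long Evans than in Fischer in 10 of 11 (8.59 to 9.51, against 8.29 to 9.31). Their part in the strain differences of the chaperones was not tested.

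**Figure D3:**
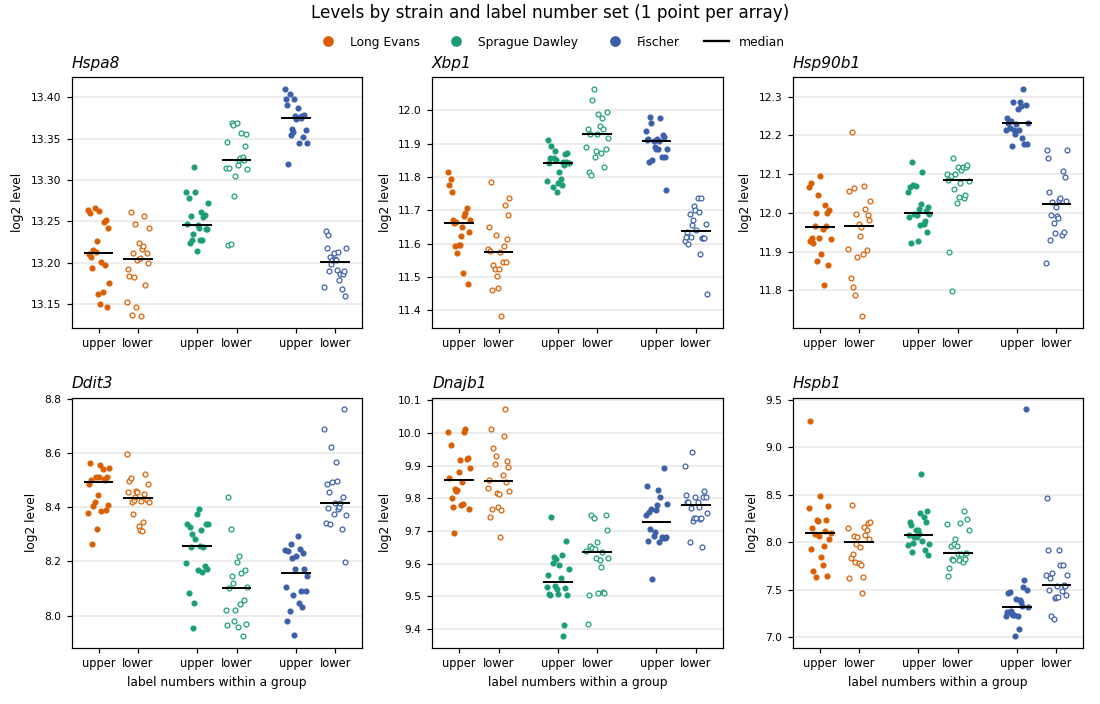
Log2 level of Hspa8 (mean of 8 probe sets), Xbp1, Hsp90b1, Ddit3, Dnajb1 and Hspb1 on each array, by strain and by upper or lower label number, with the median as a line. Dnajb1 is highest in Long Evans and lowest in Sprague Dawley in both sets, whereas Fischer arrays of Hspa8, Xbp1 and Hsp90b1 form separate upper and lower clusters.

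Within Fischer the arrays with upper and lower label numbers differed in 15 of 17 member probe sets, 13 higher and 2 lower in the upper set. Over the array 60.9% were called, 18.6% higher and 42.3% lower, with a median of -0.07 over all probe sets. The mean of the 8 Hspa8 probe sets had a lowest, median and highest value of 13.32, 13.38 and 13.41 in the 20 upper arrays, against 13.16, 13.20 and 13.24 in the 20 lower ones. Xbp1 had 11.76, 11.91 and 11.98, against 11.45, 11.64 and 11.74, and Hsp90b1 12.17, 12.23 and 12.32, against 11.87, 12.02 and 12.16. For these 3 genes no upper array overlapped a lower one. How many of all probe sets parted fully between the 2 sets was not counted.

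The upper-minus-lower difference in Fischer was 0.12 to 0.32 for the Hspa8 probe sets, 0.26 ± 0.02 for Xbp1 (adjusted p = 5.52e-13) and 0.21 ± 0.02 for Hsp90b1 (adjusted p = 1.6e-09). Smaller rises were those of Pdia4 (0.11 ± 0.03, adjusted p = 0.000392), Hspa5 (0.08 ± 0.02, adjusted p = 0.000356) and Hsph1 (0.07 ± 0.02, adjusted p = 0.00178). Unlike Xbp1, the factors Ddit3 and Atf4 went the other way: the difference was -0.31 ± 0.03 for Ddit3 (adjusted p = 2.85e-09) and -0.10 ± 0.03 for Atf4 (adjusted p = 0.00839). Ddit3 stood at 7.93, 8.16 and 8.29 in upper arrays, against 8.20, 8.42 and 8.76 in lower ones, with some overlap. Hspb1 (-0.18, adjusted p = 0.175) and Dnajb1 (-0.04, adjusted p = 0.104) did not pass.

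In Sprague Dawley the members that were called moved opposite to Fischer. There 10 of 17 probe sets were called (background 18.9%): the 8 of Hspa8 had differences of -0.11 to -0.05, Xbp1 one of -0.09 ± 0.02 (adjusted p = 0.00166), and Ddit3 was higher by 0.14 ± 0.04 (adjusted p = 0.0185). Long Evans had 0 calls in limma (background 0.0993%) and 2 at an unadjusted p under 0.05, as had 2793 of all 29214 probe sets. Hsph1 (0.04, adjusted p = 0.117) and Dnajb1 (-0.06, adjusted p = 0.074) had the same sign in Sprague Dawley as in Fischer and did not pass there. In Fischer 8 of 8 astrocyte probe sets were higher in the upper set (list mean per array 11.73 to 11.84, against 11.53 to 11.61), 9 of 9 meningeal ones were lower (8.26 to 9.01, against 8.49 to 9.44) and 8 of 11 immediate early genes were lower. In Sprague Dawley 5 of 8 astrocyte probe sets were lower (11.62 to 11.75, against 11.64 to 11.77). The part of these cell markers in the member differences was not tested. Both sets stood in every group, and with the set as a block no lead contrast gained a member call.

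**Figure D4:**
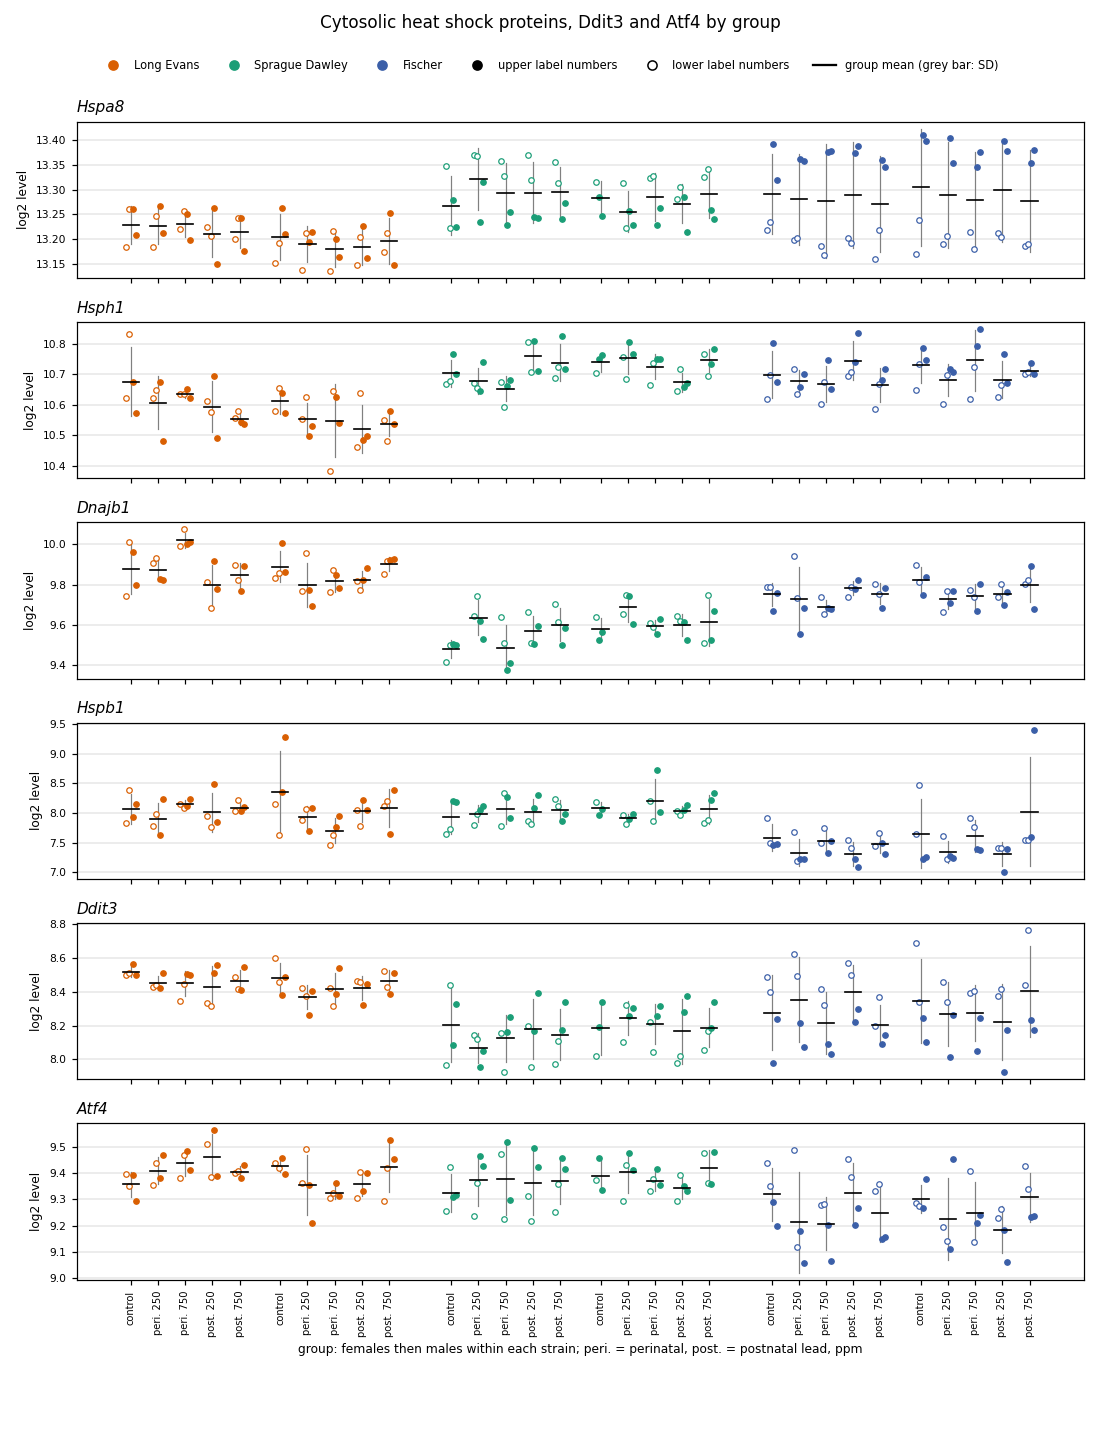
Log2 level of Hspa8 (mean of 8 probe sets), Hsph1, Dnajb1, Hspb1, Ddit3 and Atf4 on each array in the 30 groups, drawn as for the endoplasmic reticulum genes. Control and exposed groups of a strain overlap in all 6 genes, and the highest Hspb1 values are single arrays at 9.41 (Fischer) and 9.28 (Long Evans).

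Group means of most members lay close together within a strain. The 10 Fischer means of Hspa5 spanned 0.13 and the Sprague Dawley means 0.12, against a median within-group SD of 0.06 and 0.08. In Long Evans they spanned 0.30, with a median SD of 0.11, from males given 750 ppm perinatally to control females. The same pair of groups held the lowest and highest Pdia4 (9.09 and 9.51) and Xbp1 (11.52 and 11.73). Hspb1 spanned 0.65 in Long Evans and 0.72 in Fischer, and in each the highest group (Long Evans control males, Fischer males given 750 ppm postnatally) contained 1 array with pineal transcripts.

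In Long Evans and Fischer the highest Hspb1 values sat on arrays with signal from the pineal gland, a midline gland that makes melatonin. In Sprague Dawley the highest, 8.72, did not. A list of 21 pineal probe sets, drawn up after the data were seen, averaged 9.45, 8.77, 8.34 and 7.03 on 4 arrays, against 6.15 to 6.52 on the other 115. On these 4 arrays Tph1, the pineal enzyme of serotonin synthesis, read 12.98, 12.68, 12.20 and 10.05, against 5.6 to 7.83 elsewhere. Hspb1 read 9.41 on the first (Fischer male postnatal 750 ppm), 9.28 on the second (Long Evans male control), 8.47 on the third (Fischer male control) and 8.01 on the fourth (Sprague Dawley male perinatal 750 ppm). The first 2 were the highest arrays of their strain and the third the second highest of its own, whereas the fourth ranked 20th in its strain.

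**Figure D5:**
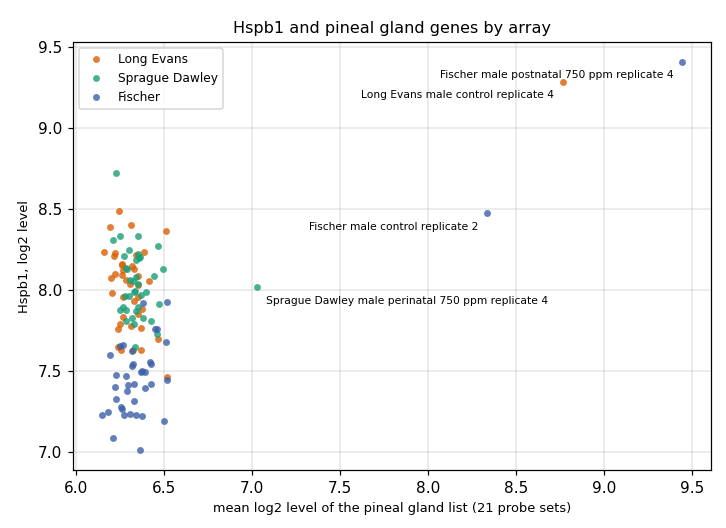
Hspb1 log2 level (vertical axis) against the mean log2 level of 21 pineal probe sets (horizontal axis) on every array, coloured by strain. The 4 labelled arrays lie apart at pineal means of 7.03 to 9.45, and the other 115 lie between 6.15 and 6.52.

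Correlations were taken over each array's deviation from a fit of group and label number set, and are given as a description, since the values of an array share its dissection, RNA and hybridisation. Across the 115 arrays without pineal transcripts, Hspb1 correlated with the endothelial list at r = 0.608, with the meningeal list at 0.56, with the choroid plexus list at 0.559 and with the pineal list at -0.178. The genes most like it over the 115 were Prelp (r = 0.722) and Lamb2 (0.709), whose products lie in the extracellular matrix.

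Among the endoplasmic reticulum genes, Hspa5 correlated with Hsp90b1 at r = 0.706, with Pdia4 at 0.593 and with Xbp1 at 0.526 over all arrays. Within strains the first was 0.832 in Long Evans, 0.679 in Sprague Dawley and 0.415 in Fischer, and the second 0.794, 0.508 and -0.0634 in the same order. Hsp90b1 correlated with Hspa8 at 0.729, and Ddit3 with Hspa8 at -0.353. The symbols most like Pdia4 over all arrays were Creld2 (0.616) and Pdia6 (0.592), both of the endoplasmic reticulum. Without the arrays that held pineal transcripts they were Mapre1 (0.628) and Creld2 (0.622). Over all arrays those for Hspa5 were Zmpste24 (0.628) and Mbtps2 (0.627), the site 2 protease that cleaves ATF6, and for Hsp90b1 Adss2 (0.702) and Arl6ip1 (0.701). For Hsph1 they were Tcp1 (0.583), a subunit of the cytosolic chaperonin, and Clcn3 (0.572). Dnajb1 deviated most like Mfhas1 (0.544) and Azi2 (0.539), Ddit3 like Wdr26 (0.51) and Sytl5 (0.509), Atf4 like Ccnq (0.625) and Asrgl1 (0.599), and Xbp1 like Cse1l (0.559) and Klhl9 (0.534). Without the arrays that held pineal transcripts, Sdha (0.582) stood in place of Clcn3 for Hsph1, and Psph (0.578) in place of Wdr26 for Ddit3. The best matches of the Hspa8 probe sets reached 0.71 to 0.779 over all arrays. These values only describe which genes deviated alike on the same arrays.

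Of 21 further endoplasmic reticulum chaperones and folding enzymes (of 23 listed), none was called for the mean lead effect in any strain. Between Long Evans and Fischer 3 were higher and 11 lower in Long Evans (list median -0.05, all probe sets -0.01), where 61.2% of all probe sets were called (27.8% higher, 33.4% lower). Sdf2l1 was higher by 0.47 ± 0.03 (adjusted p = 6.91e-26), and the thioredoxin-fold protein Erp44 (-0.30), the BiP cochaperone Dnajb11 (-0.26) and the lectin chaperone Canx (-0.11) were lower. Sprague Dawley minus Fischer gave 8 higher and 8 lower (background 40.7%), with Pdia5 at -0.37, Dnajb9 at -0.31 and Manf, a secreted protein induced by this stress, at 0.17. In Fischer arrays with upper label numbers (background 60.9%) 9 were higher, among them calreticulin (Calr, 0.17) and the prolyl isomerase Ppib (0.19), and 6 lower, among them Creld2 (-0.19).

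Of 16 sensors and degradation factors (of 19 listed), 0 were called with lead. Between Long Evans and Fischer 6 were higher and 5 lower, a share near the 61.2% of the whole array, with Atf6b at 0.22, the ubiquitin ligase Syvn1 at 0.27 and Edem2 at 0.25. Between Sprague Dawley and Fischer 4 were higher and 3 lower (background 40.7%), and the sensor kinase Eif2ak3 (PERK) was at -0.17. Fischer arrays with upper label numbers had 8 higher and 6 lower (background 60.9%), with Sel1l at 0.27, the sensor Atf6 at 0.25 and Creb3l2 at -0.32.

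Of 30 probe sets for 28 further cytosolic heat shock genes (of 32 listed), 0 were called with lead. Hsf1, the master factor of the heat shock response, was higher in Long Evans by 0.43 ± 0.02 than in Fischer (adjusted p = 1.6e-33) and by 0.41 ± 0.02 than in Sprague Dawley (adjusted p = 1.23e-31). Against Fischer 6 probe sets were higher and 13 lower in Long Evans, again near the 61.2% of the array, with the small heat shock gene Hspb6 at 0.41 and Hspa4 at -0.25. In Fischer arrays with upper label numbers 14 were higher and 13 lower (background 60.9%). Among the higher were Bag1 (0.63), the Hsp90 partners Fkbp4 (0.42) and Stip1 (0.22), and Hsp90aa1 itself (0.21). In Sprague Dawley arrays with upper label numbers 0 were higher and 11 lower (background 18.9%), with Fkbp4 at -0.28.

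The 8 probe sets of 7 mitochondrial chaperone genes (of 8 listed) had 0 lead calls, and 5 were lower in Long Evans than in Fischer (33.4% of all probe sets were), among them both Hspd1 probe sets (-0.37 and -0.16). Of 27 probe sets for 25 genes of the integrated stress response and ATF4 targets (of 26 listed), 1 was called with lead: Psat1, an enzyme of serine synthesis, rose by 0.16 ± 0.03 in exposed Long Evans animals (adjusted p = 0.0305). No other probe set of the list was called with lead in any strain, and 0.212% of all probe sets were called in Long Evans. Between Long Evans and Fischer 8 were higher and 13 lower (background 61.2%), with the serine pathway enzyme Phgdh at 0.34, Psat1 at -0.28 and the cystine transporter Slc7a11 at -0.30.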

How the data were processed

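The deposited log2 values of 29214 probe sets on 119 Affymetrix arrays were used as the authors made them. RMA and Partek are named in the submitters' processing notes; versions and the array batches are not given in the sources used here. Values ran from 2.293 to 14.18, with array medians of 7.355 to 7.566, and no value was missing. Symbols came from GEO's platform annotation: 15310 probe sets had 1 symbol, 323 several and 13581 none, and 15279 of the 15310 matched a RefSeq gene.

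Groups were taken from the labels. limma 3.58.1 in R 4.3.3 (lmFit, eBayes, Benjamini-Hochberg over all 29214 probe sets, adjusted p under 0.05) was fitted per strain for lead, dose, period, sex and label number, and over all 119 arrays for strain. The fits were tested on simulated data with noise drawn independently for each array. Those simulations do not show how the lead and strain fits behave where arrays of a label run share a difference. The number of arrays limits the precision, and without the label number set in the fit its difference adds to the spread within groups.

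All member probe sets are named whatever their result. For likeness, the 2 probe sets of highest Pearson r are named, and of each pathway list up to 4 called genes of smallest p. Members and lists (pathways and cell type markers) were chosen with earlier results of these data known, and the pineal list was added after the data were seen. Alternatives covered a joint fit of all strains, the label number set as a block and each set alone, quantile normalization, a filter at the 40th percentile, array weights, a choroid plexus covariate, controls alone, and leaving out single animals, arrays against their sex label or arrays with pineal transcripts. The sex label was checked with the X-linked genes Eif2s3, Ddx3x and Pbdc1.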

Additional observations from a re-analysis of the deposited data

Results flagged for a closer look

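In 12 of the 290 pairs of a member and a group of 4 arrays, 1 array stood apart by Dixon's test (4.14%; chance flags about 1 in 20 groups). Each is given as its log2 level beside the range of the other 3 arrays of its group.

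Hspb1 made up 5 of the 12, all in Fischer. Male postnatal 750 ppm replicate 4 stood at 9.41 against 7.54 to 7.60, and this array held pineal transcripts. Female control replicate 1 stood at 7.92 against 7.46 to 7.5, male perinatal 250 ppm replicate 1 at 7.62 against 7.22 to 7.28, and female perinatal 250 ppm replicate 1 at 7.68 against 7.19 to 7.23. Male postnatal 250 ppm replicate 3 was the low one, at 7.01 against 7.4 to 7.42.

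For the Hsp110 gene Hsph1, Fischer male perinatal 250 ppm replicate 1 stood at 10.6 against 10.70 to 10.72, and Sprague Dawley male perinatal 750 ppm replicate 1 at 10.66 against 10.74 to 10.75. The same Sprague Dawley array was high in Hspa5, at 12.44 against 12.36 to 12.37. For the Hsp40 gene Dnajb1, Long Evans male postnatal 750 ppm replicate 1 stood at 9.85 against 9.92 in all of the others, and Sprague Dawley female control replicate 1 at 9.41 against 9.50 to 9.51. Ddit3 was low in Long Evans male postnatal 250 ppm replicate 3, at 8.32 against 8.45 to 8.46, and Atf4 was high in Fischer male control replicate 4, at 9.38 against 9.27 to 9.28.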

How the results depend on the processing

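The number of member probe sets called was followed in 27 comparisons. It stayed within 1.5 times its value in all that could be fitted under the label number block, further quantile normalization, the 40th percentile filter, array weights, the choroid plexus covariate, and with removal of arrays that went against sex or that held pineal transcripts (the last chosen after the data were seen). In 1 fit of all arrays 1 member was called, against 0, for the Long Evans lead effect by group, the Long Evans mean lead effect and the Long Evans label number difference. Leaving out 1 animal gave 0 to 1 calls for the Long Evans mean lead effect and for the strain difference of the mean lead effect of Long Evans minus Fischer and minus Sprague Dawley; the animal was Long Evans female control replicate 1. With lower label numbers alone, strain calls numbered 6 for Long Evans minus Fischer (16 with all) and 13 for Sprague Dawley minus Fischer (6 with all); with upper numbers alone Sprague Dawley minus Fischer had 16. Control animals alone gave 1, 1 and 2 calls for Long Evans minus Fischer, Sprague Dawley minus Fischer and Long Evans minus Sprague Dawley. There are fewer animals in these subsets, and the share of all probe sets called in them was not counted.

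Of 36 strain calls, 36 kept their call with the block and 35 under quantile normalization. With upper label numbers alone 30 kept their call, 4 lost it and 2 reversed: for Sprague Dawley minus Fischer, Xbp1 was -0.065 and Ddit3 0.0967. With lower numbers alone 24 kept it, 4 lost it and 8 reversed: for Sprague Dawley minus Fischer, Hsp90b1 was 0.041, and for Long Evans minus Fischer, Ddit3 was -0.0156 and 6 Hspa8 probe sets were 0.00374, 0.00509, 0.00592, 0.00304, 0.00089 and 0.00991. In controls alone Hspa5 was 0.00951 for Long Evans minus Sprague Dawley. The labels do not match the sets between strains, and the cause of these reversals was not tested. Of 25 label number calls, 23 were kept under quantile normalization. Leaving out 1 animal lost 0 of the 36 and 0 of the 25. No paired analysis was possible because the labels give the groups no shared replicate numbers; the label number set fitted as a block does not pair animals.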

Other observations

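Marker lists of cell types not described above were tested the same way. None of the 9 principal neuron, 8 microglial or 4 red blood cell probe sets was called for the mean lead effect in any strain. Between Long Evans and Fischer, where 61.2% of all probe sets were called, 2 neuronal probe sets were higher and 4 lower in Long Evans, 1 microglial was higher and 3 lower, and 2 of the red blood cell ones were higher. Between Sprague Dawley and Fischer, where 40.7% were called, 1 neuronal probe set was higher and 5 lower in Sprague Dawley, 4 microglial were higher and 3 lower, and all 4 of the red blood cell ones were higher. In the pineal list, 0 of 21 probe sets were called for the mean lead effect in any strain.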
